A study of Mus musculus with 2 samples.

Results

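The expression of 36 genes of the amino acid response and the unfolded protein response was compared between shLuc and shKdm5b R1 mouse embryonic stem (ES) cells after 72 h of culture without LIF. The genes were taken from a fixed list of symbols and fall into 22 genes of the ATF4 arm (*Atf4*, other stress regulators, enzymes and transporters) and 14 genes of the endoplasmic reticulum (ER) arm (*Xbp1*, chaperones and other folding proteins). All 36 were found among the 21935 gene symbols in the data, and each had an RPKM (reads per kilobase of transcript, scaled to library depth) above 1 in at least 1 library, as did 11804 symbols in total.

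ATF4 is a transcription factor whose mRNA is translated preferentially when eIF2α is phosphorylated, which happens when cells are short of amino acids or hold misfolded proteins in the ER. Its targets include genes for amino acid synthesis, amino acid import and tRNA charging, and, under prolonged stress, *Ddit3*, which encodes CHOP. In the unfolded protein response, ATF6 and the spliced form of XBP1 raise the transcription of ER chaperones such as BiP (*Hspa5*), while the kinase PERK phosphorylates eIF2α and so links the ER to ATF4. Because ATF4 is controlled largely at translation, ATF6 by cleavage and XBP1 by splicing, the mRNA level of these factors is not a measure of their activity.

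The study depleted KDM5B, a demethylase that removes methyl groups from histone H3 lysine 4, by RNA interference. R1 is a mouse ES cell line that was maintained on irradiated embryonic fibroblasts. Both conditions carry a lentiviral pGreenPuro vector selected with puromycin, with a hairpin against luciferase (shLuc, the control) or against *Kdm5b* (shKdm5b). For differentiation both were kept without LIF, the cytokine that maintains self-renewal. The study names gelatin-coated or low attachment dishes for this step. Polyadenylated RNA was sequenced from 1 library per condition, so a difference between the conditions cannot be told apart from a difference between these libraries and has no replicate check. Library totals were 78172700 reads for shLuc and 72702700 reads for shKdm5b. Counting intervals (95%, exact Clopper-Pearson) were computed from each gene's reads and cover counting error only. In such bulk RNA, a smaller number of cells that express a gene and less of its RNA per cell cannot be told apart.

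The targeted gene, *Kdm5b*, measured 104 RPKM in the control and 3.01 RPKM in shKdm5b cells, 2.88% of the control level. Of the ES cell genes, *Pou5f1* measured 619 and 182 RPKM, *Sox2* 237 and 272 RPKM and *Nanog* 90.2 and 85.0 RPKM in shLuc and shKdm5b cells. Among 8 ES cell genes, 2 were more than 1.5-fold lower as deposited (25%, against 32.0% of all genes) and 1 higher (12.5%, against 16.3%). Besides *Pou5f1* these were *Esrrb*, at 80.5 and 41.2 RPKM, and the higher *Dppa5a*, at 1096 and 1651 RPKM. Among 9 fibroblast genes, 1 (*Thy1*) was above 1 RPKM, and their summed level was 5.40 RPKM in the control and 6.23 RPKM after depletion. The fibroblast gene *Col3a1* had 15 and 17 reads and *Postn* had 3 and 0 reads. The changed levels of *Pou5f1*, *Esrrb* and *Dppa5a* moved with the results given here, and their part in them was not tested. The level of most genes moved with base composition: across 11533 genes, the log2 ratio of shKdm5b to shLuc had a Spearman correlation of -0.53 with the GC content of the transcript, and the median log2 ratio of all genes above 1 RPKM was -0.21. Ratios are therefore given as deposited and, for many genes, also after a smoothed curve on GC content was taken out. *Esrrb*, for example, had a log2 ratio of -0.96 as deposited and was within the 1.5-fold threshold at -0.30 after this correction. A ratio given without a corrected value may also have moved. Whether the GC trend arose in the cells or in the libraries was not tested.

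The arms differed in short sequences near their transcription start sites, which are shown because they set the ATF4 arm beside the ER arm without use of the expression values. The windows reached from 250 bases before to 50 bases after each start site (RefSeq, GRCm38.p6), were searched on both strands, and were present for 33 of the 36 genes. They were not found for *Slc7a5*, *Slc7a3* and *Manf*. The C/EBP-ATF response element (CARE, TGATGNAA), to which ATF4 binds as a dimer with C/EBP proteins, was present in 8 of 20 windows of the ATF4 arm (40%), in 1 of 13 windows of the ER arm (7.69%) and in 1304 of all 32851 windows (3.97%). The ER stress response element (ERSE, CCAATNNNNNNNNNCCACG), which NF-Y and ATF6 or XBP1 bind together, was present in 7 of 13 ER arm windows (53.8%), in 0 of 20 ATF4 arm windows and in 39 of all windows (0.119%). A related element, ERSE-II (ATTGGNCCACG), was present in *Herpud1* and in 12 windows in all (0.0365%). The UPRE core TGACGTGG was in no member's window and in 0.676% of all windows. A match is a description of these letters and was not tested for binding.

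The following windows show where the matches lie, read 5′ to 3′ on the strand of the gene, with the match in capitals (TTNCATCA and CGTGG with ATTGG are the same elements read on the opposite strand). The first lines are CARE matches upstream of the RefSeq start sites of targets described further on. Those of *Asns* and *Nupr1* lie within the span of the longer GENCODE M21 transcripts used for GC content. *Slc7a11* holds a pair of matches within one short stretch:
*Slc7a11* (chr3:50443647-50443704, minus strand): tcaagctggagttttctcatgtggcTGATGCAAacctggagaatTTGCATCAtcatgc
*Asns* (chr6:7693210-7693257, minus strand): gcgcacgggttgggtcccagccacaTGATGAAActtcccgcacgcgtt
*Chac1* (chr2:119351024-119351081, plus strand): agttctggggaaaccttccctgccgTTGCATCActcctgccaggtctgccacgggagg
*Nupr1* (chr7:126625548-126625605, minus strand): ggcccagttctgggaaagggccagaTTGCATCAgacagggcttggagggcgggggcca
Next are ERSE matches of the pairs of chaperones compared further on, with both matches of *Hsp90b1*:
*Hspa5* (chr2:34772000-34772068, plus strand): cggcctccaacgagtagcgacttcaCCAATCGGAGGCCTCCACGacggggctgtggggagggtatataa
*Hsp90b1*, first match (chr10:86705613-86705681, minus strand): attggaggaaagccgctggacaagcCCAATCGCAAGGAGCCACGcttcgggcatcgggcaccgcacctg
*Hsp90b1*, next match (chr10:86705508-86705576, minus strand): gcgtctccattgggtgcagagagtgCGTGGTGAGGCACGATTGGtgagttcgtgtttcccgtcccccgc
*Calr* (chr8:84847050-84847118, minus strand): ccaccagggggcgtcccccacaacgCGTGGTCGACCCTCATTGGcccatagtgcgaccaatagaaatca
*Canx* (chr11:50325775-50325843, minus strand): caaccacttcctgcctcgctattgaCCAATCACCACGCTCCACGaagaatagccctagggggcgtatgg
Last is *Herpud1*, the only member with both a CARE and an ERSE-II match:
*Herpud1*, CARE (chr8:94386292-94386349, plus strand): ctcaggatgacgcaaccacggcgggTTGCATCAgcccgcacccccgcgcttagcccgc
*Herpud1*, ERSE-II (chr8:94386352-94386412, plus strand): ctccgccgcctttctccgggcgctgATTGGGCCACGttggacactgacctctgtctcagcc

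Both arms had more genes lower than higher in shKdm5b cells as deposited, as did all genes. The share of lower genes was above that of all genes in the ATF4 arm and slightly below it in the ER arm. A gene was counted as higher or lower when its fold change exceeded 1.5 on the log2(RPKM + 0.1) scale. In the ATF4 arm, 12 of 22 genes fell (54.5%), 2 rose (9.09%) and 8 were within the fold change threshold, against 32.0% lower and 16.3% higher among the 11804 genes above 1 RPKM. The median log2 ratio of the arm was -0.65 against -0.21 for all of these genes, and the summed RPKM of the arm was 796 in the control and 533 in shKdm5b cells (67.0%). In the ER arm, 4 of 14 genes fell (28.6%), 1 rose and 9 were within the threshold, with a median of 0.11. Its summed RPKM was 1280 in the control and 1261 in shKdm5b cells (98.5%). Over all 21935 symbols, the summed RPKM in shKdm5b cells was 109.6% of the control.

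The ratios moved when all genes were brought to a median of 0 or when the GC trend was taken out. With the libraries scaled to a median log2 ratio of 0 over genes above 1 RPKM in both, which took out a shift of -0.17, 10 genes of the ATF4 arm were lower and 2 higher, against 25.5% and 21.9% of all genes. In the ER arm, 2 were then lower and 3 higher. After the GC trend was taken out, 6 genes of the ATF4 arm were lower (27.3%) and 4 higher (18.2%), against 17.7% and 18.7% of the 11533 genes with a GC value, and the median of the arm was -0.22. The corresponding ER counts were 2 lower and 3 higher, with a median of 0.06. With a trend on transcript length also taken out, the ATF4 arm had 6 lower and 3 higher and the ER arm 2 lower and 1 higher, against 16.2% and 15.4% of all genes. The share of lower genes in the ATF4 arm was thus nearer to that of all genes after the GC correction than as deposited.

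**Figure D1:**
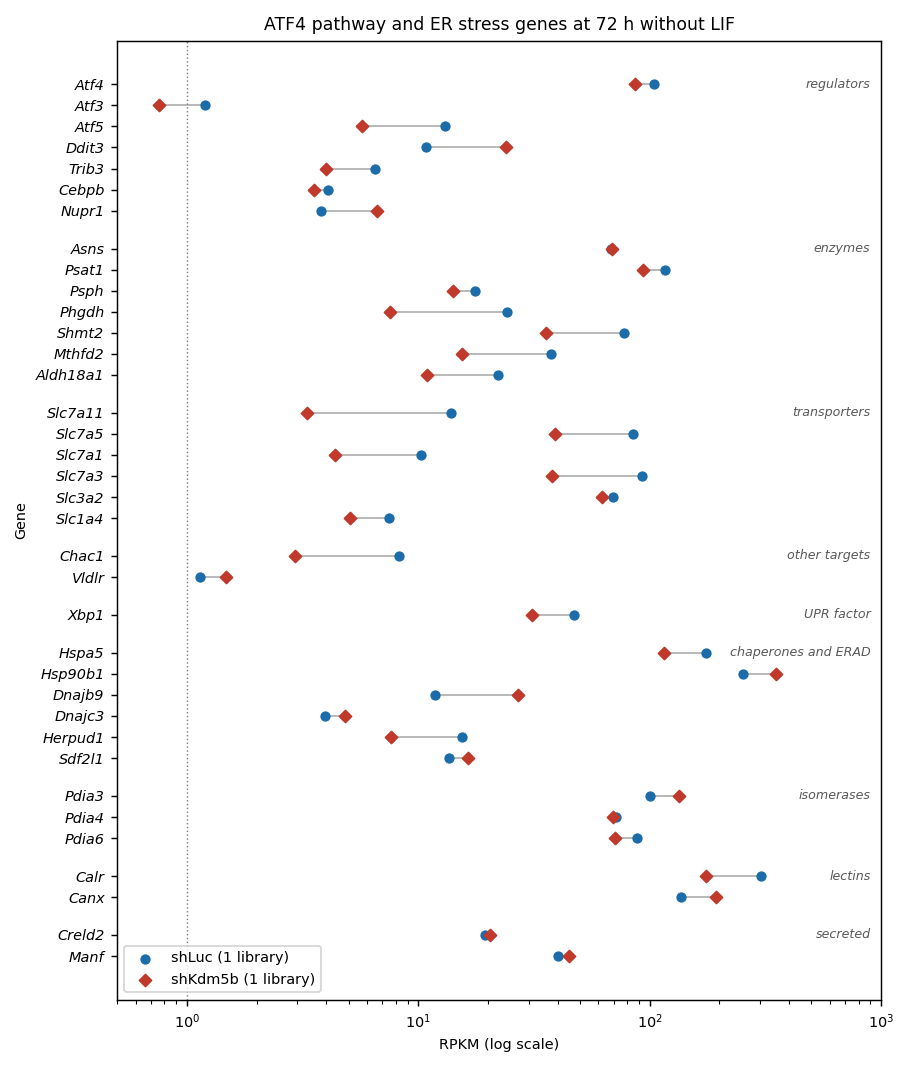
RPKM (log axis) of each of the 36 genes in shLuc and in shKdm5b cells, with genes grouped by role, a grey line joining the values of a gene and a dotted line at 1 RPKM. *Slc7a11* lies at 13.8 and 3.30 RPKM and *Ddit3* at 10.9 and 23.9 RPKM, while *Asns* lies at 68.4 and 68.9 RPKM.

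Among the regulators of the ATF4 arm, *Ddit3* and *Nupr1* were higher and *Atf5*, *Trib3* and *Atf3* lower in shKdm5b cells. *Atf4* itself measured 105 RPKM in the control and 86.1 RPKM in shKdm5b cells, a log2 ratio of -0.28 (-0.32 to -0.25), and stood close to the median of all genes. *Ddit3*, whose product CHOP is a transcription factor linked to cell death under prolonged ER stress, rose from 10.9 RPKM (739 reads) to 23.9 RPKM (1515 reads), a 2.19-fold difference and a log2 ratio of 1.13 (1.01 to 1.27). Within each library, the level of *Ddit3* relative to *Atf4* was 0.104 in the control and 0.278 after depletion. *Nupr1*, a small stress-induced chromatin protein, rose from 3.80 RPKM (186 reads) to 6.61 RPKM (301 reads), a log2 ratio of 0.78 (0.53 to 1.07).

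The genes that fell include factors that act beside or downstream of ATF4. *Atf5*, a related transcription factor that is also translated preferentially under stress, measured 13.0 and 5.72 RPKM in control and depleted cells, a log2 ratio of -1.17 (-1.31 to -1.06) that was -0.25 after the GC correction. *Trib3*, a pseudokinase induced by ATF4 and CHOP that restrains both, fell from 6.53 to 3.997 RPKM as deposited, a log2 ratio of -0.69, but its ratio was 0.08 after the GC correction. *Atf3*, a stress-induced repressor, was the least abundant member, with 185 and 109 reads (1.198 and 0.759 RPKM). Its log2 ratio of -0.60 (-1.01 to -0.31) had an interval that reached across the threshold of 0.585. *Cebpb*, a partner of ATF4 at CARE sites, measured 4.09 and 3.56 RPKM and had the highest GC content of the members (67.2%). Part of its exons (20.7% of the transcript) overlaps *Tmem189* on the opposite strand, where the reads cannot be told apart. The log2 ratio of *Cebpb* was -0.20 as deposited and 0.89 after the GC correction. With that correction, *Ddit3* stood at 1.74 and *Nupr1* at 1.37, so that 3 of the 7 regulators were past the threshold upwards (18.7% of all genes) and 0 downwards. With transcript length also corrected, *Ddit3* stood at 1.14 and *Cebpb* at 0.70, and *Nupr1* was within the threshold at 0.57. *Trib3* and *Ddit3*, which encode a target and its inducer, thus had unequal ratios, and the level of *Trib3* relative to *Ddit3* was 0.602 in the control and 0.167 in shKdm5b cells.

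The enzymes of amino acid and folate metabolism and the amino acid transporters carried most of the lower calls. Of these 13 genes, 8 fell (61.5%, against 32.0% of all genes), 0 rose and 5 were within the threshold, and their median log2 ratio was -1.11. Their summed RPKM after depletion was 62.0% of the control, against 109.6% over all symbols. After the GC correction 5 of 13 remained past the threshold downwards (38.5%, against 17.7% of all genes) and 0 were past it upwards, with a median of -0.45. The median over all genes was set close to 0 by that correction.

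Of the serine synthesis enzymes, only *Phgdh* passed the threshold. *Phgdh*, which catalyses the first step of the pathway from glycolysis, fell from 24.1 RPKM (3531 reads) to 7.54 RPKM (1025 reads), a 3.17-fold difference and a log2 ratio of -1.67 (-1.78 to -1.58) and of -0.95 after the GC correction. *Psat1*, the aminotransferase of the next step, measured 116 and 93.5 RPKM, and *Psph*, the phosphatase of the last step, 17.6 and 14.1 RPKM. Their log2 ratios were -0.31 and -0.32 as deposited, and -0.23 and 0.17 after the GC correction. The ratio of *Phgdh* to *Psat1* was 0.207 in shLuc and 0.0805 in shKdm5b cells, whereas that of *Psph* to *Psat1* was 0.151 in both. Part of the exons of *Psph* (26.1% of the transcript) overlaps *Cct6a* on the opposite strand, and the reads of these genes cannot be told apart there.

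*Shmt2* and *Mthfd2*, which pass the one-carbon unit of serine to folate in mitochondria, fell by similar amounts. *Shmt2* measured 77.5 and 35.7 RPKM, a log2 ratio of -1.12 (-1.16 to -1.07), and *Mthfd2* 37.6 and 15.4 RPKM, a log2 ratio of -1.28 (-1.36 to -1.22). The level of *Shmt2* relative to *Mthfd2* was 2.06 in the control and 2.32 in depleted cells. After the GC correction *Mthfd2* stayed at -1.10 and *Shmt2* was at -0.39. *Aldh18a1*, the first enzyme of proline synthesis from glutamate, fell from 22.1 to 10.9 RPKM, a log2 ratio of -1.01 and of -0.53 after the GC correction. *Asns*, which makes asparagine and is a much used readout of ATF4, measured 68.4 RPKM (10301 reads) and 68.9 RPKM (9655 reads), a log2 ratio of 0.01 (-0.03 to 0.05). Its counting interval thus held 0. The window of *Asns* holds a CARE match, as does that of *Slc7a11*.

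*Slc7a11* had the largest fall of all members. It encodes xCT, the light chain of the cystine and glutamate exchanger that supplies cysteine for glutathione, and measured 13.8 RPKM (9947 reads) in the control and 3.30 RPKM (2215 reads) in shKdm5b cells. The difference was 4.08-fold, a log2 ratio of -2.03 (-2.13 to -1.996), and only 1.71% of genes above 1 RPKM had a ratio as low or lower. The transcript has a GC content of 40.7%, at which the curve of all genes lay above 0, and after the GC correction the log2 ratio was -2.47.

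Of the other transporters, *Slc7a5*, *Slc7a1* and *Slc7a3* fell and *Slc3a2* and *Slc1a4* were within the threshold. *Slc7a5*, the light chain of the large neutral amino acid exchanger, measured 84.8 and 39.2 RPKM, a log2 ratio of -1.11 (-1.15 to -1.08). *Slc7a1* and *Slc7a3*, carriers of arginine and lysine, measured 10.2 and 4.37 RPKM and 92.6 and 37.8 RPKM, with log2 ratios of -1.21 and -1.29. These carriers kept ratios of -0.90 and -1.14 after the GC correction, while *Slc7a5* was at -0.45. *Slc1a4*, a carrier of neutral amino acids such as serine, measured 7.47 and 5.07 RPKM, a 1.46-fold difference. *Slc3a2*, the heavy chain that both *Slc7a5* and *Slc7a11* products need to reach the cell surface, measured 69.6 and 62.0 RPKM. Its log2 ratio was -0.17 (-0.20 to -0.13) as deposited and 0.45 after the GC correction. In control cells there was 1.22 times as much *Slc7a5* as *Slc3a2* mRNA per length, and in shKdm5b cells 0.632 times as much. For *Slc7a11* the corresponding values were 0.198 and 0.0532.

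The last members of the ATF4 arm are a glutathione enzyme and a receptor. *Chac1*, which degrades glutathione and is induced by ATF4, fell from 8.29 RPKM (1015 reads) to 2.92 RPKM (333 reads), a 2.77-fold difference and a log2 ratio of -1.47 (-1.69 to -1.32) and of -0.74 after the GC correction. *Vldlr*, a lipoprotein receptor, measured 1.14 and 1.48 RPKM, a log2 ratio of 0.35 (0.23 to 0.52), and stood at 0.60 after the GC correction. Its GC content came from a matched transcript of 3855 bases, while the counted entry has 8224 bases. The 8 ATF4 arm genes with a CARE match had a median log2 ratio of -0.57 (4 lower, 1 higher), and the 12 without a match one of -0.66 (6 lower, 1 higher). *Slc7a5* and *Slc7a3*, which were both lower, have no window, and bases outside the windows were not searched. Whether a match relates to a lower level was not tested.

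**Figure D2:**
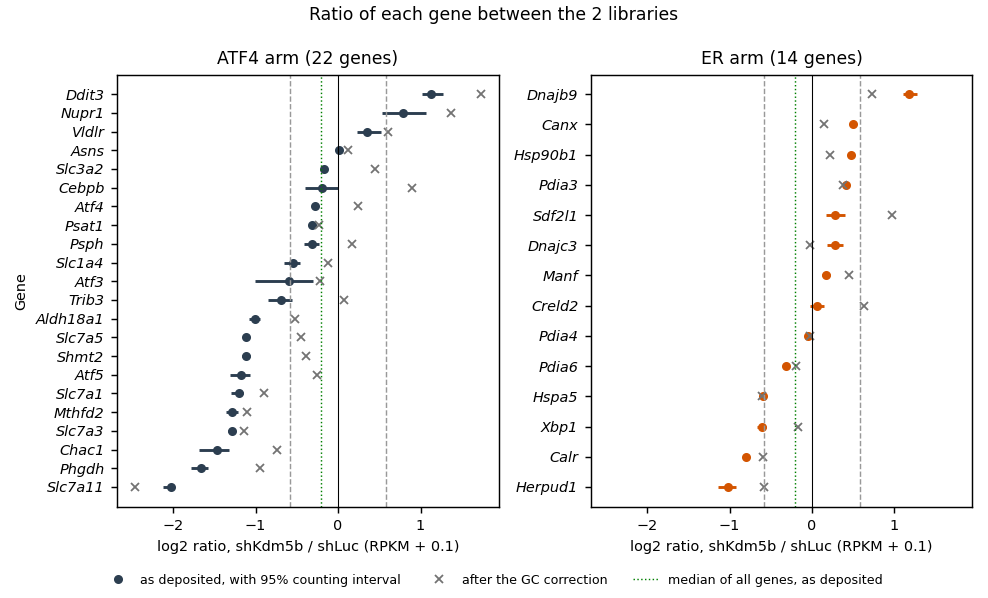
Log2 ratio of shKdm5b to shLuc, on the log2(RPKM + 0.1) scale, for each gene of the ATF4 arm and of the ER arm, as deposited with the 95% counting interval and after the GC correction. Dashed lines mark the fold change of 1.5, the dotted line marks the median of all genes (-0.21), and 18 of the 22 ATF4 arm genes lie below 0 as deposited, against 6 of the 14 ER arm genes.

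In the ER arm, *Dnajb9* rose and *Herpud1*, *Calr*, *Xbp1* and *Hspa5* fell. *Dnajb9* (ERdj4), a cochaperone of BiP, measured 11.8 RPKM (1721 reads) in the control and 26.8 RPKM (3640 reads) in shKdm5b cells, a 2.26-fold difference and a log2 ratio of 1.18 (1.10 to 1.27). *Herpud1*, a membrane protein of the machinery that removes misfolded proteins from the ER, fell from 15.5 RPKM (2271 reads) to 7.62 RPKM (1036 reads), a log2 ratio of -1.02 (-1.14 to -0.92). After the GC correction these values were 0.73 for *Dnajb9* and -0.58 for *Herpud1*. *Xbp1*, which encodes the transcription factor of the IRE1 branch, measured 47.3 and 31.0 RPKM, a log2 ratio of -0.61 as deposited and -0.17 after the correction. Spliced and unspliced *Xbp1* mRNA were not separated.

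The abundant chaperones did not move together. BiP (*Hspa5*), the main Hsp70 of the ER, fell from 175 to 115 RPKM, a log2 ratio of -0.60 (-0.62 to -0.58). GRP94 (*Hsp90b1*), the Hsp90 of the ER, measured 254 and 353 RPKM, a log2 ratio of 0.47 (0.46 to 0.49) that lay within the threshold. Per transcript length, there was 0.687 times as much *Hspa5* as *Hsp90b1* mRNA in shLuc and 0.326 times as much in shKdm5b cells. Of *Hsp90b1*, 14.7% of the transcript overlaps a gene on the opposite strand (*1810014B01Rik*). *Dnajc3*, an inhibitor of PERK and cochaperone of BiP, measured 3.96 and 4.81 RPKM, and *Sdf2l1*, a component of ER chaperone complexes, 13.5 and 16.5 RPKM. These last genes had log2 ratios of 0.27 and 0.28, and *Sdf2l1* stood at 0.97 after the GC correction.

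A contrast of the same kind was seen between the lectin chaperones, which bind the sugars of newly made glycoproteins. Calreticulin (*Calr*), the soluble one, fell from 303 to 174 RPKM, a log2 ratio of -0.80 (-0.82 to -0.78). Calnexin (*Canx*), the membrane-bound one, measured 137 and 194 RPKM, a log2 ratio of 0.50 (0.48 to 0.52). *Calr* mRNA was 2.21 times as abundant as *Canx* mRNA per length in the control and 0.8999 times as abundant in shKdm5b cells. GC content differed between them, and the corrected ratios were -0.59 for *Calr* and 0.14 for *Canx*. For the Hsp70 and Hsp90 of the ER the corrected ratios were -0.60 and 0.21. Thus *Calr* and *Hspa5* stayed past the threshold downwards and neither partner passed it upwards. With the libraries scaled to a median of 0 the calls were placed differently, since *Hsp90b1* and *Canx* were past the threshold upwards at 0.64 and 0.67 and *Hspa5* was within it at -0.43. Scaling moves both partners by the same shift, so it cannot change the sign of the difference between them. After the GC correction that difference kept its sign in both pairs.

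The disulfide isomerases and the secreted stress proteins were all within the threshold as deposited. *Pdia3*, *Pdia4* and *Pdia6*, which form and rearrange disulfide bonds, had log2 ratios of 0.41, -0.05 and -0.31. *Pdia3* measured 100.2 and 133 RPKM, *Pdia4* 71.6 and 69.1 RPKM and *Pdia6* 87.9 and 70.7 RPKM. *Creld2* and *Manf*, ER proteins that are secreted under stress, measured 19.5 and 20.3 RPKM and 40.03 and 45.0 RPKM, with log2 ratios of 0.06 (-0.03 to 0.15) and 0.17 (0.12 to 0.22). *Creld2* was past the threshold at 0.63 after the GC correction and *Manf* was within it at 0.45. Of all 36 genes, *Asns* and *Creld2* were the ones whose counting intervals held 0. The 7 ER arm genes with an ERSE match had a median log2 ratio of 0.06 (2 lower, 0 higher), and the 6 without one a median of 0.12 (2 lower, 1 higher).

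GC content, and its correlation with the log2 ratio, differed between the arms. The median GC content was 53.9% in the ATF4 arm and 48.2% in the ER arm, against 50.5% for all genes. Across the 14 ER arm genes, GC content and log2 ratio had a Spearman correlation of -0.60, and across the 22 ATF4 arm genes one of 0.01. The GC correction moved the median of the ATF4 arm from -0.65 to -0.22 and that of the ER arm from 0.11 to 0.06. These are descriptions of genes that share the same pair of libraries. Below the curve of all genes by more than the threshold lay 8 of the 36 members (22.2%, against 17.7% of all genes), *Slc7a11* and *Mthfd2* among them. Above it by more than the threshold lay 7 (19.4%, against 18.7%), among them *Ddit3*, *Nupr1* and *Dnajb9*.

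**Figure D3:**
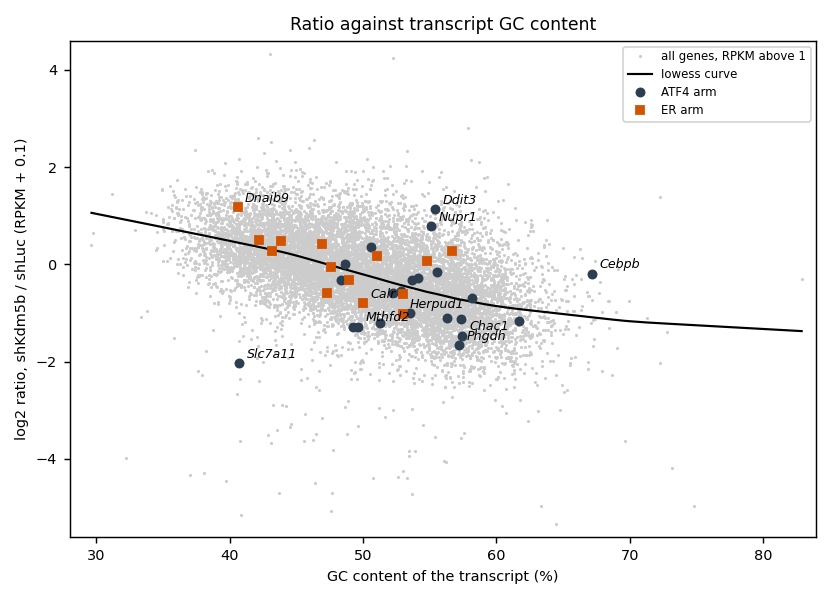
Log2 ratio of shKdm5b to shLuc (RPKM + 0.1) against the GC content of the transcript in percent, for all 11533 genes above 1 RPKM with a GC value (grey), with the smoothed curve that was taken out and the genes of both arms marked. *Slc7a11* (40.7% GC) lies below the curve at a log2 ratio of -2.03, and *Ddit3* lies above it at 1.13.

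The sensors, eIF2α kinases, proteases and phosphatase subunits that start or end these responses were counted together with eIF2α itself and ATF6. Of these 12 genes, 6 fell (50%, against 32.0% of all genes) and 0 rose, with a median log2 ratio of -0.56. *Atf6b*, a relative of ATF6, had the largest fall as deposited, from 15.7 to 6.72 RPKM (log2 ratio -1.21), but was within the threshold at -0.34 after the GC correction. *Mbtps2*, a protease that releases ATF6 from the membrane, had the highest ratio, with 10.1 and 13.1 RPKM (0.37 as deposited and -0.11 after the correction). With GC corrected, 3 of the 12 were lower (25%, against 17.7% of all genes) and 0 higher.

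Aminoacyl-tRNA synthetases load tRNAs with their amino acids, and 12 of them are known as ATF4 targets. Of these, 6 fell (50%, against 32.0% of all genes), 6 were within the threshold and 0 rose, with a median of -0.64. Their summed RPKM was 67.1% of the control, against 109.6% over all symbols. *Mars*, the methionyl-tRNA synthetase, had the largest fall, from 57.4 to 18.9 RPKM (log2 ratio -1.60, and -1.10 after the GC correction), and *Eprs*, which charges glutamate and proline tRNAs, the highest ratio, -0.06. *Mars* overlaps *Ddit3* on the opposite strand over 7.64% of the *Ddit3* transcript, and these genes had ratios of opposite sign. Of 8 other cytosolic synthetases, 2 fell (25%) and 1 rose (12.5%), with a median of -0.21. *Farsa*, a subunit of the phenylalanyl-tRNA synthetase, fell from 57.1 to 13.3 RPKM (log2 ratio -2.09, and -1.41 after the GC correction). *Dars*, the aspartyl-tRNA synthetase, rose from 55.0 to 98.4 RPKM (0.84) but was within the threshold at 0.43 after the correction. After the GC correction, 5 of the 12 (41.7%) and 2 of the 7 other synthetases with a GC value (28.6%) were lower, against 17.7% of all genes, and 0 of either list were higher.

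Further ATF4 targets and further ER genes were mixed. Of 20 further ATF4 targets, 18 were above 1 RPKM, of which 4 fell (22.2%, against 32.0% of all genes) and 2 rose (11.1%, against 16.3%), with a median log2 ratio of -0.36. The balance turned with the GC trend taken out, with 2 lower and 4 higher of 17 and a median of -0.04, against 17.7% and 18.7% of all genes. *Cth*, which makes cysteine from cystathionine, rose from 11.0 to 23.0 RPKM (log2 ratio 1.06, and 0.83 after the GC correction). *Sesn2*, a stress-induced inhibitor of mTORC1 signalling, fell from 30.5 to 12.9 RPKM (-1.24) but was within the threshold at -0.44 after the correction. *Cth* and *Slc7a11*, which provide cysteine by synthesis and by import, thus had ratios of opposite sign. Of 22 further genes of ER folding, export and degradation, 9 fell (40.9%, against 32.0% of all genes) and 4 rose (18.2%, against 16.3%), with a median of -0.44. With GC corrected, 5 were lower (22.7%) and 1 higher (4.55%), with a median of -0.19. The members with the largest differences were subunits of the same Sec61 channel, through which proteins enter the ER. *Sec61b* rose from 49.1 to 122 RPKM (log2 ratio 1.31, and 1.62 after the GC correction). *Sec61a1* fell from 69.1 to 18.3 RPKM (-1.91, and -1.41 after the correction). With transcript length also corrected, *Sec61b* stood at 0.76 and *Sec61a1* at -1.32. The level of *Sec61a1* relative to *Sec61b* was thus 1.41 in the control and 0.150 in shKdm5b cells.

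**Figure D4:**
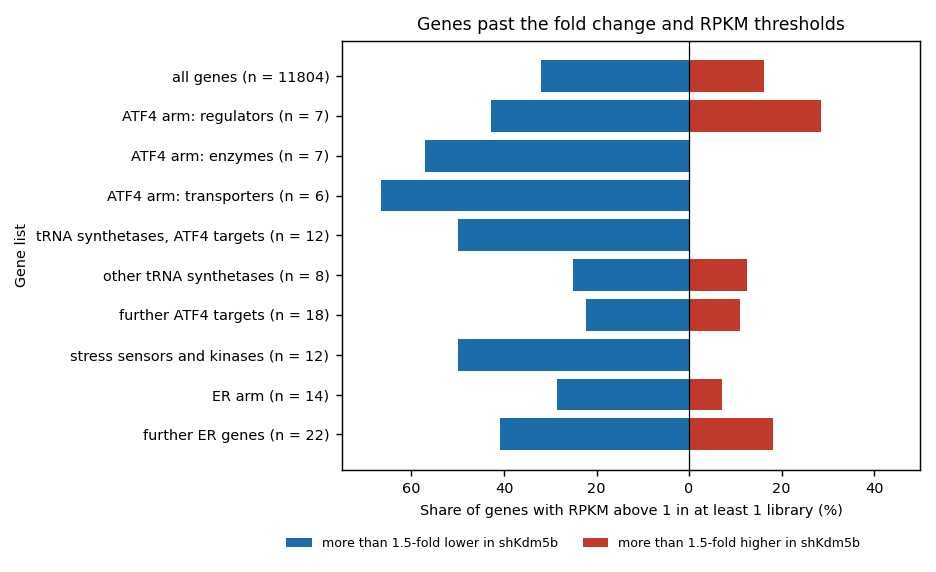
Share of the genes of each list, in percent of those above 1 RPKM in at least 1 library, that were more than 1.5-fold lower (left) or higher (right) in shKdm5b cells as deposited. All genes stand at 32.0% lower and 16.3% higher, the ATF4 arm transporters at 66.7% lower and 0 higher, and the ER arm at 28.6% lower and 7.14% higher.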

How the data were processed

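RNA-Seq of shLuc and shKdm5b ES cells was analysed, with 1 library per condition. The authors deposited read counts and RPKM values per RefSeq transcript entry, and they computed RPKM from the counts, transcript length and depth. The submitters' processing notes name Bowtie 0.12.7, CASAVA 1.0 and the build mm8 with no role. The counting program is not given in the sources used here. The cDNA preparation does not mark strand, so reads of genes that overlap on opposite strands cannot be told apart. Deposited read positions (mm8) and a further column of whole numbers without a stated meaning were not used.

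The 27405 entries were reduced to 21935 symbols by taking the most abundant entry (mean RPKM) of a symbol, which affected 6 members. Log2 ratios were taken on the log2(RPKM + 0.1) scale, and a gene was called when its fold change exceeded 1.5 and its RPKM exceeded 1 in at least 1 library. No test with replicates was possible. Counting intervals used each gene's reads in both libraries (SciPy 1.17.1). Depth was a median of 1859 and 1511 reads per gene above 1 RPKM, and 109 to 70809 reads for the members. GC content came from GENCODE M21 (GRCm38) transcripts matched by RefSeq identifier (97.0% of the 21935 symbols, all 36 members), and the trend was a lowess curve (statsmodels 0.14.6, fraction 0.3). A matched transcript can differ in length from the counted entry, as for *Vldlr* (3855 and 8224 bases) and *Slc3a2* (1819 and 2572 bases). Exon overlaps are those of the same annotation. Alternatives were other pseudocounts, scalings (edgeR 4.0.16, DESeq2 1.42.0), filters, thresholds and entries, and edgeR's exact test at an assumed dispersion. The procedure was tested on simulated data with counting error only, which hold no spread between cultures and cannot check the calls against it.

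The members and lists were chosen with earlier results of these data known. All members were named. In each other list, the genes with the largest rise and fall among those with an RPKM of at least 10 were named. The pairs of genes compared within a library were chosen after their values were seen.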

Additional observations from a re-analysis of the deposited data

How the results depend on the processing

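No paired analysis was possible because only 1 library exists for either condition. Without replicates no library could be left out and DESeq2's own test could not be run. The number of ATF4 arm calls, 14, was 9 with GC and length corrected and 1 (*Slc7a11*) with edgeR's exact test at an assumed dispersion of 0.04. That of ER arm calls, 5, was 3 with 75th percentile scaling, 3 with GC and length corrected, 2 at a fold change above 2 and 0 at a dispersion of 0.04. For all genes, 5702 calls became 2842 at RPKM above 10, 2688 at a fold change above 2, 3637 with GC and length corrected and 284 at a dispersion of 0.04 with FDR below 0.001. The median log2 ratio of the ATF4 arm, -0.65, was -0.54 with a pseudocount of 1, -0.49 with median scaling, -0.44 with TMM, -0.42 with DESeq2 size factors, -1.11 at RPKM above 10 (15 genes), -0.22 with GC and -0.25 with GC and length corrected. That of the ER arm, 0.11, was 0.28 with median scaling, 0.185 with the 75th percentile, 0.33 with TMM, 0.35 with DESeq2 size factors, 0.0606 at RPKM above 10, 0.0584 with GC and 0.21 with GC and length corrected. ER calls were 4 higher and 1 lower with TMM and with DESeq2 size factors. *Trib3* turned from -0.69 to 0.0761 with GC and 0.0514 with GC and length corrected, since its ratio was near that of other genes of its GC content. Other causes of these moves were not tested. Of the 15 alternatives, 9 act on the ratios of single members and 6 only on thresholds or tests. Under those 9, 132 of 324 ratios stayed within the counting interval of the deposited ratio, 190 moved outside it and 2 reversed. Only a change of sign from a deposited ratio past the threshold was counted as reversed. Ratios within the threshold also changed sign, such as *Atf4* (-0.28, and 0.24 with GC corrected) and *Dnajc3* (0.27, and -0.02 with GC corrected). *Slc7a11* kept its call in all 15. *Hspa5*, *Xbp1*, *Trib3* and *Atf3* kept theirs in 8, 7, 7 and 3. Depth limits *Atf3* and *Nupr1* most. The number of libraries limits every difference, since spread between cultures is unknown.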

Other observations

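Cytosolic and mitochondrial heat shock genes, which respond to misfolded proteins outside the ER, were counted in the same way. Of 12 genes, 1 rose (8.33%, against 16.3% of all genes) and 2 fell (16.7%, against 32.0%) as deposited, with a median log2 ratio of -0.41. After the GC correction 2 were higher (16.7%, against 18.7%) and 1 lower (8.33%, against 17.7%), with a median of -0.03. *Hspe1*, the mitochondrial Hsp10, rose from 169 to 346 RPKM (log2 ratio 1.03). *Dnajb1*, a cytosolic cochaperone of Hsp70, fell from 26.9 to 13.1 RPKM (-1.03).

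A second transcript entry was present for *Atf5*, with a log2 ratio of -1.35 against -1.17 for the entry used. That of *Slc3a2* was -0.14 against -0.17. The other members with several entries had ratios that differed by less than 0.01 between entries. Annotated pseudogenes carry the names of *Phgdh* and *Calr* (*Phgdh-ps1* and *Calr-ps*), and whether they share reads with these genes was not tested.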
